A study of Mus musculus with 2 samples.

Results

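The genes of oxidative phosphorylation (OXPHOS) were followed in GFP+ and GFP- cells of the embryonic mouse retina. They were chosen by symbol from the genes listed in the count matrices. Symbols starting with *Ndufa*, *Ndufb*, *Ndufc*, *Ndufs* or *Ndufv* stand for complex I, *Sdha*, *Sdhb*, *Sdhc* or *Sdhd* for complex II, *Uqcr* for complex III, *Cox4*, *Cox5*, *Cox6*, *Cox7* or *Cox8* for complex IV and *Atp5* for complex V, and *mt-* marks genes of the mitochondrial genome. Of 102 genes with such symbols, 100 were detected in more than 3 cells, out of 17115 genes detected in that many cells and 28692 genes listed. There were 87 nuclear members, with 38 in complex I, 8 in complex II, 8 in complex III, 16 in complex IV and 17 in complex V, and 13 mitochondrially encoded members. The symbols also took in 4 assembly factors of complex II, *Sdhaf1* to *Sdhaf4*, while 7 *Ndufaf* assembly factors of complex I were left out. *Cox8b*, seen in 1 cell, and *Cox8c*, seen in 0 cells, were below the detection limit.

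The retinas came from E14.5 embryos (staged in days of development) that were heterozygous for Tg(Lhx4::EGFP)KN199Gsat/Mmucd, a bacterial artificial chromosome transgene that reports *Lhx4* with EGFP, and no other treatment or allele is given. GFP-positive retinas of 2 litters were pooled, dissociated and sorted, and the GFP+ and GFP- cells were each made into 1 droplet library, so the GFP- cells carry the same transgene. The GFP+ gate was labelled as cone photoreceptors and the GFP- gate as retinal cells. With 1 library per gate and pooled embryos, no difference between the gates has a replicate check. No p-value is therefore given, and a ratio of at least 1.5 stands in for a call.

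Each transcript was counted once by its unique molecular identifier (UMI). The limits were more than 250 and fewer than 3500 genes per cell, with under 0.25 of its UMIs from the mitochondrial genome, and they left 3689 of 3728 GFP+ cells with 15503658 UMIs and 3389 of 4445 GFP- cells with 30094636 UMIs. The median was 3894 UMIs per GFP+ cell and 8848 UMIs per GFP- cell, and 1055 GFP- cells were above the limit on genes. The libraries shared 20 barcodes. Levels are UMIs summed over the cells of a group per 1000000 UMIs (CPM), and the bracketed 95% intervals cover counting error only. No doublet caller was run. Cells were left unassigned only where no marker list met the limits given below, so assigned cells can hold markers of other lists.

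Cells were grouped by marker UMIs, with at least 3 UMIs of a list and over 50% of the UMIs of all 5 lists. The markers of cones (such as *Thrb*, *Rxrg*, *Gngt2* and *Gnb3*) placed 3600 of the kept GFP+ cells (97.6%) in the cone-marker group, and the 7 cone markers together made up 4346 CPM of the GFP+ and 33.0 CPM of the GFP- library. The GFP- library gave 1869 multipotent retinal progenitor cells (RPC-marker; such as *Hes1*, *Nr2e1* and *Sfrp2*), 469 neurogenic cells, 481 retinal ganglion cells (RGC-marker), 298 amacrine and horizontal cells (AC/HC-marker), 61 cone-marker cells and 211 unassigned cells. The 61 cone-marker GFP- cells were sequenced in the same library as most progenitors, so they are used below to set the gate comparison beside a comparison within a library. Their cone marker level, 2216 CPM, lay between those of cone-marker GFP+ cells (4518 CPM) and RPC-marker cells (4.08 CPM). The same cells also held 139 CPM of neurogenic, 108 CPM of RGC and 66.5 CPM of multipotent RPC markers.

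OXPHOS couples electron transfer to ATP synthesis across the inner mitochondrial membrane. Complexes I and II pass electrons from NADH and succinate to ubiquinone, complex III passes them on to cytochrome c, and complex IV reduces oxygen, while complexes I, III and IV pump protons that drive the ATP synthase, complex V. Complex II is encoded by nuclear genes alone, whereas the other complexes combine nuclear subunits with subunits made from the small circular mitochondrial genome, and photoreceptors of the mature retina are known for a very high demand on this pathway.

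Per total UMIs the members together made up a similar part of the transcriptome in both gates. The 13 mitochondrially encoded mRNAs were 2.55% of UMIs in GFP+ and 2.40% in GFP- cells, and the 87 nuclear members were 2.92% and 3.07%. The ratio of GFP+ to GFP- cells was 1.06 (1.06 to 1.07) for the mitochondrially encoded and 0.950 (0.946 to 0.953) for the nuclear members per total UMIs. These directions depended on the scale, since TMM factors, which centre the bulk of the genes, gave 0.846 (0.843 to 0.849) and 0.757 (0.754 to 0.760), so that the first ratio turned. TMM moved every log2 ratio of cone-marker over RPC-marker cells within the GFP- library by -0.39, of AC/HC-marker over RPC-marker cells by -0.22, of cone-marker GFP+ over RPC-marker cells by -0.38 and of GFP+ over GFP- cells by -0.33, and over the genes with at least 10 UMIs the median log2 ratio was 0.30 per total UMIs and -0.03 with TMM. Beside it, the UMIs of cytosolic ribosomal protein genes were 0.685 times as frequent in GFP+ cells (173099 against 252803 CPM), and their part in the scale was not tested. Levels below are per total UMIs unless TMM is named.

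Among cell groups the shares spread more widely. Within the GFP- library the mitochondrially encoded ratio of cone-marker to RPC-marker cells was 1.25 (1.22 to 1.27) per total UMIs and 0.954 with TMM. The mitochondrially encoded share was 2.40% in RPC-marker, 2.32% in neurogenic-marker, 2.33% in RGC-marker and 2.52% in AC/HC-marker cells, 2.55% in cone-marker GFP+ cells and 2.99% in cone-marker GFP- cells. The nuclear share was 2.97%, 3.16%, 3.29%, 3.10%, 2.91% and 3.21% in the same order. Cone-marker GFP- cells were thus the highest group for the mitochondrially encoded share, and RGC-marker cells were the highest for the nuclear share. The share varied far more between single cells of a group than between groups, with 5th to 95th percentiles of 1.48% to 3.72% for the mitochondrially encoded share in cone-marker GFP+ cells. Counting error in single cells makes up part of this spread, and its size was not estimated. Over quartiles of UMIs per cell the mitochondrially encoded share ran from 2.47% to 2.64% in cone-marker GFP+ and from 2.33% to 2.65% in RPC-marker cells. In all kept GFP- cells it ran from 2.70% in the shallowest quartile to 2.30% in the third. These ranges are wider than the gap between the gates (2.55% and 2.40%), and the part of depth in that gap was not tested.

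**Figure D1:**
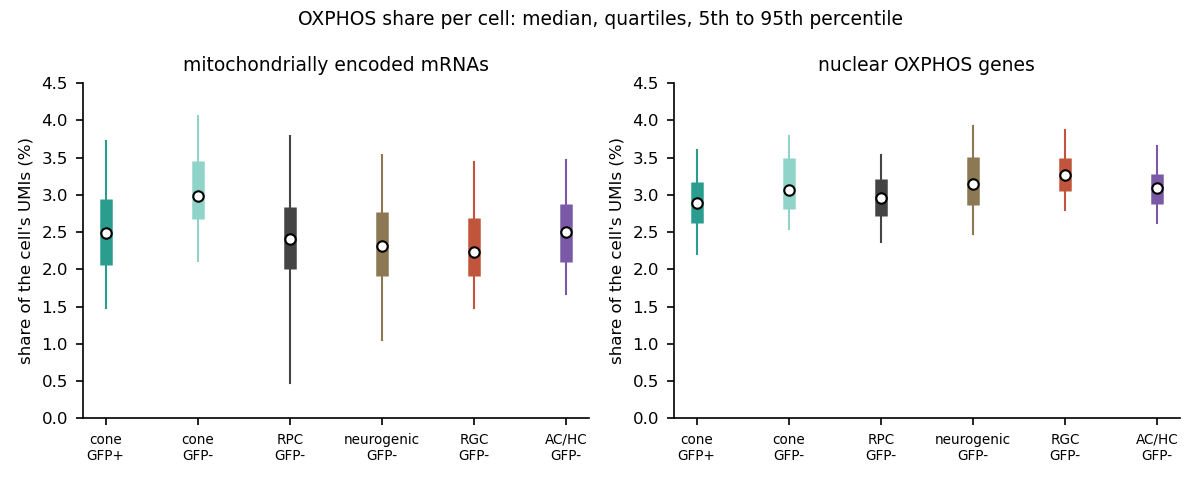
Share of each cell's UMIs (%) from the 13 mitochondrially encoded mRNAs (left) and the 87 nuclear OXPHOS genes (right) in 6 groups of cells set by marker UMIs. Circles are medians over cells, thick bars quartiles and thin lines the 5th to 95th percentiles; the medians lie between 2.23% and 2.98% on the left and between 2.89% and 3.27% on the right, and the thin line of RPC-marker cells reaches down to 0.469%.

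Of the 87 nuclear members, 86 had at least 10 UMIs in both libraries together. Per total UMIs, 7 of them (38.0% of all genes) were at least 1.5-fold higher in GFP+ cells and 6 (22.3% of all genes) were at least 1.5-fold lower, and 73 lay between. Of the 7, *Cox7b2* rested on 10 UMIs in both gates together, and its interval held 1 (1.94-fold, 0.447 to 8.43). With TMM the same 86 genes gave 3 higher (25.9% of all genes) and 23 lower (29.9%). The median log2 ratio of these 86 genes was 0.02 per total UMIs, against 0.30 over all 15236 genes. With TMM these medians were -0.31 and -0.03. Of 79 nuclear members with at least 50 CPM in either gate, 4 were higher (34.2% of all such genes) and 6 lower (16.8%), where *Cox4i2* and *Ndufa4l2* pass this limit through the GFP- gate only. With TMM, 1 of these 79 was higher (21.9%) and 22 were lower (27.2%). A smaller share of the members than of all genes thus differed by 1.5-fold in either direction per total UMIs. With TMM the share that was lower was close to that of all genes. All genes are no length-matched background. At 50 CPM or more, the median log2 gate ratio per total UMIs was -0.27 for 130 genes of under 600 bases. It was 0.45 for 1921 genes of 2000 bases or more. For nuclear members in these length ranges it was -0.11 (25 genes) and 0.21 (8 genes). The part of length in these shares was not tested.

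**Figure D2:**
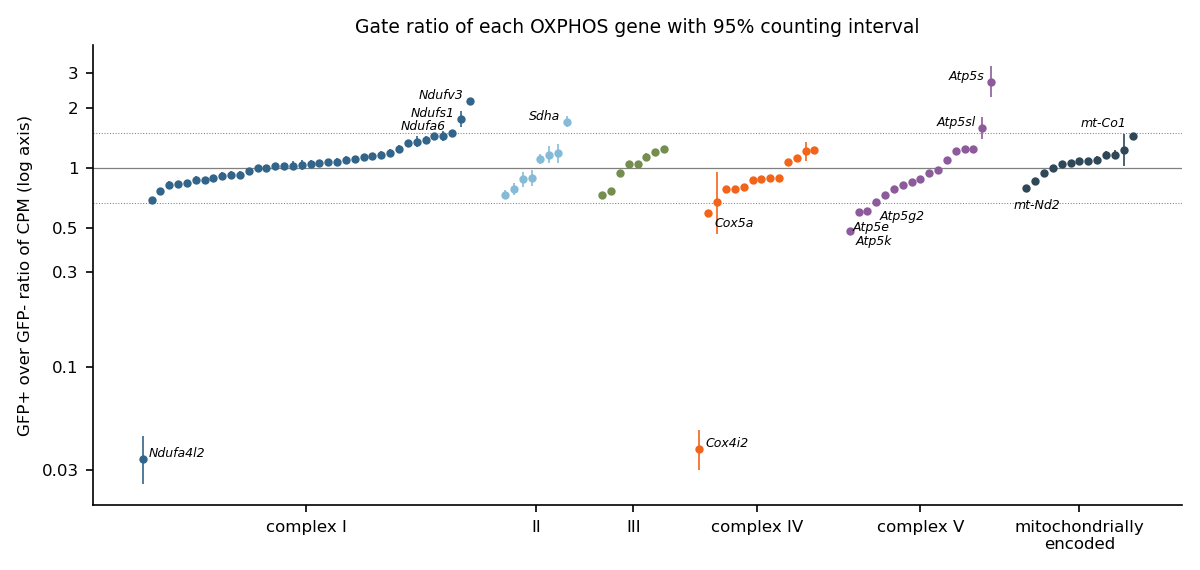
GFP+ over GFP- ratio of CPM (log axis) for each OXPHOS gene with at least 50 UMIs, grouped by complex and ordered by ratio, with 95% counting intervals; dotted lines mark 1.5-fold in either direction. Most points lie near 1, *Ndufa4l2* (0.0342) and *Cox4i2* (0.0384) lie far below, and *Atp5s* (2.72) and *Ndufv3* (2.19) lie highest.

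Complex I takes electrons from NADH. Its 38 nuclear members summed to 10468 CPM in GFP+ and 9931 in GFP- cells, a ratio of 1.05 (1.05 to 1.06) that turned to 0.840 with TMM. *Ndufv3*, an accessory subunit of the NADH-oxidising arm, had the highest ratio of the complex, with 541 CPM in GFP+ and 248 in GFP- cells (2.19-fold, 2.12 to 2.25; 1.74-fold with TMM). It was as high in cone-marker cells of the GFP- library, at 595 CPM against 237 CPM in RPC-marker cells (2.52-fold, 2.16 to 2.91). Between the cone-marker cells of both gates its ratio was 0.920 (0.796 to 1.07). The neurogenic-marker (180 CPM), AC/HC-marker (249 CPM) and RGC-marker cells (309 CPM) all lay below the cones.

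*Ndufs1* and *Ndufa6* were the other members of the complex that were at least 1.5-fold higher in GFP+ cells per total UMIs. *Ndufs1*, which carries iron-sulphur clusters of that arm, had 54.2 CPM in GFP+ and 30.7 in GFP- cells (1.76-fold, 1.60 to 1.94; 1.41-fold with TMM). It was also raised in AC/HC-marker cells, at 50.04 CPM against 26.1 CPM in RPC-marker cells (1.92-fold, 1.53 to 2.38). Between cone-marker and RPC-marker cells of the GFP- library the ratio of *Ndufs1* was 1.70 (0.920 to 2.88), and its interval held 1. *Ndufa6*, an accessory subunit, had 494 CPM and 327 CPM (1.51-fold, 1.46 to 1.55; 1.203-fold with TMM), and 491 CPM against 303 CPM for cone-marker and RPC-marker cells within the GFP- library (1.62-fold, 1.37 to 1.90). With TMM the latter ratio was 1.24 (1.05 to 1.45). The members with the most UMIs differed little between the gates per total UMIs. *Ndufa4* had 842 CPM in GFP+ and 822 in GFP- cells, and *Ndufa2* had 465 CPM and 561 CPM. With TMM their ratios were 0.817 (0.799 to 0.834) and 0.661 (0.643 to 0.679), so that *Ndufa2* was at least 1.5-fold lower on that scale. *Ndufa4* is counted in the sums of complex I by its symbol, although its protein is now placed in complex IV.

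*Ndufa4l2* was the exception of the group. It encodes a protein related to *Ndufa4*, is known to be induced when oxygen is low and is known to lower complex I activity. It had 3.48 CPM in GFP+ and 102 in GFP- cells, a ratio of 0.0342 (0.0256 to 0.0447). Its level was 154 CPM in RPC-marker, 47.9 CPM in neurogenic-marker, 19.5 CPM in RGC-marker, 12.0 CPM in AC/HC-marker, 3.17 CPM in cone-marker GFP- and 0.739 CPM in cone-marker GFP+ cells. The RPC-marker cells therefore stood well above every other group.

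Complex II joins the citric acid cycle to the respiratory chain. Its 8 members, the 4 assembly factors included, summed to 667 CPM in GFP+ and 683 in GFP- cells (ratio 0.977, 0.954 to 1.001). The subunits did not move as 1 block: *Sdha*, the flavoprotein that oxidises succinate, had 125 CPM in GFP+ and 73.1 in GFP- cells (1.71-fold, 1.61 to 1.82; 1.36-fold with TMM), whereas *Sdhb*, its iron-sulphur partner, had 158 CPM and 215 CPM (0.736-fold, 0.702 to 0.771). *Sdha* was also higher in cone-marker than in RPC-marker cells of the GFP- library, at 117 CPM against 76.5 CPM (1.53-fold, 1.07 to 2.12), and it was lowest in RGC-marker cells at 55.3 CPM, where *Sdhb* was highest at 266 CPM. With TMM the ratio of *Sdha* between cone-marker and RPC-marker cells of that library was 1.17 (0.821 to 1.62), and its interval held 1. The membrane anchor *Sdhc* had 81.0 CPM and 103 CPM, and *Sdhd* had 129 CPM and 116 CPM in GFP+ and GFP- cells, with *Sdhd* lowest in AC/HC-marker cells at 74.6 CPM.

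The assembly factors of complex II were close between the gates. *Sdhaf1* had 50.1 CPM in GFP+ and 57.1 in GFP- cells, *Sdhaf2* 43.4 CPM and 37.1 CPM, *Sdhaf3* 34.4 CPM and 29.0 CPM, and *Sdhaf4* 45.7 CPM and 51.2 CPM. None of the 4 reached 1.5-fold in this comparison. Within the GFP- library, *Sdhaf3* was 1.82-fold (1.01 to 3.03) and *Sdhaf4* 1.64-fold (1.04 to 2.46) higher in cone-marker than in RPC-marker cells, both on few UMIs. With TMM these ratios were 1.39 (0.772 to 2.32) and 1.25 (0.799 to 1.88), and both intervals held 1.

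Complex III is the cytochrome bc1 complex. Its 8 members summed to 2965 CPM in GFP+ and 3042 in GFP- cells (ratio 0.975, 0.964 to 0.986), and 0 of 8 passed 1.5-fold per total UMIs, while with TMM 2 of 8, *Uqcr10* and *Uqcrq*, were lower. *Uqcrc1*, a core subunit, had 242 CPM and 195 CPM and was the highest by ratio, while *Uqcr10*, a small subunit, had 289 CPM and 393 CPM and was the lowest (0.735, 0.710 to 0.760). *Uqcrh*, the hinge protein, had 694 CPM and 664 CPM, and *Uqcrq*, also a small subunit, had 399 CPM and 519 CPM. *Uqcrfs1*, the Rieske iron-sulphur protein, was 1.59-fold (1.30 to 1.92) higher in cone-marker than in RPC-marker cells of the GFP- library. With TMM this ratio was 1.21 (0.993 to 1.47), and its interval held 1.

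Complex IV, cytochrome c oxidase, is the complex with the most tissue-specific isoforms. Its 16 nuclear members summed to 7721 CPM in GFP+ and 8420 in GFP- cells (ratio 0.917, 0.911 to 0.923). *Cox4i1* and *Cox4i2* encode alternative forms of the same subunit, and *Cox4i2* is known as the form induced by low oxygen. *Cox4i1* had the highest ratio among the members of the complex with at least 50 UMIs, with 1410 CPM in GFP+ and 1150 in GFP- cells (1.23-fold, 1.21 to 1.25; 0.977-fold with TMM, so that its direction turned). *Cox4i2* had 4.90 CPM and 128 CPM, a ratio of 0.0384 (0.0302 to 0.0481).

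*Cox4i2*, like *Ndufa4l2*, was highest in RPC-marker and next highest in neurogenic-marker cells. It had 205 CPM in RPC-marker, 35.6 CPM in neurogenic-marker, 14.9 CPM in AC/HC-marker, 9.50 CPM in cone-marker GFP-, 4.97 CPM in RGC-marker and 0.941 CPM in cone-marker GFP+ cells. The level in cone-marker GFP- cells rested on 3 UMIs (1.96 to 27.8 CPM), too few to rank them against AC/HC-marker or RGC-marker cells. That of *Ndufa4l2* in the same cells rested on 1 UMI. As a share of the UMIs of both *Cox4* genes *Cox4i2* made up 15.6% (15.1 to 16.0) in RPC-marker, 3.14% (2.65 to 3.70) in neurogenic-marker and 0.391% (0.251 to 0.581) in RGC-marker cells. *Ndufa4l2* made up 16.9% (16.3 to 17.5) of the UMIs of *Ndufa4* and *Ndufa4l2* in RPC-marker, 5.18% (4.48 to 5.95) in neurogenic-marker and 1.91% (1.55 to 2.33) in RGC-marker cells. These are ratios of tag counts and were not corrected for transcript length. Neurogenic-marker cells thus lay between RPC-marker cells and the postmitotic groups for both genes.

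A UMI of *Cox4i2* was found in 74.5% (72.4 to 76.4) of RPC-marker cells, in 4.57% of RGC-marker cells and in 0.361% of cone-marker GFP+ cells, at median depths of 9407, 10386 and 3878.5 UMIs. With every cell thinned to 3200 UMIs, and 9, 2 and 564 shallower cells left out, the shares were 45.6% (43.3 to 47.9), 0.835% and 0.264%. *Ndufa4l2* was found in 51.7% of RPC-marker and 0.278% of cone-marker GFP+ cells, and in 31.5% and 0.165% after thinning. In RGC-marker cells *Ndufa4l2* was found in 10.4% (7.81 to 13.5), and in 5.01% (3.24 to 7.36) after thinning. Free RNA in the droplets can give UMIs in cells that do not express a gene, and its part in the low shares was not tested. Within RPC-marker cells, the 967 cells with a *Ndufa4l2* UMI held 257 CPM (247 to 268) of *Cox4i2*, and the 902 cells without one held 148 CPM (140 to 157), at median depths of 9416 and 9391 UMIs. The 5 endothelial markers, whose cells can also express these genes, summed to 57.2 CPM in RPC-marker, 25.5 CPM in neurogenic-marker, 12.0 CPM in RGC-marker, 320.4 CPM in AC/HC-marker, 6.33 CPM in cone-marker GFP- and 5.71 CPM in cone-marker GFP+ cells. Their part in the levels of *Cox4i2* and *Ndufa4l2* was not tested. Of the 5 markers, 1 was at 0 UMIs in RPC-marker cells.

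The other isoform pairs of complex IV behaved differently. *Cox6a1* had 443 CPM in GFP+ and 551 in GFP- cells, while *Cox6a2*, the heart and muscle form, was found in 5 cells. *Cox6b1* had 592 CPM and 756 CPM, and *Cox6b2*, known from testis, had 33.1 CPM and 27.2 CPM. *Cox6b2* was low in the neurons outside the cone lineage, at 8.50 CPM in RGC-marker and 9.62 CPM in AC/HC-marker cells against 31.6 CPM in RPC-marker, 39.4 CPM in neurogenic-marker, 32.9 CPM in cone-marker GFP+ and 34.8 CPM in cone-marker GFP- cells. Its ratio of RGC-marker to RPC-marker cells was 0.269 (0.191 to 0.370), and after thinning it was found in 3.13% and 9.62% of them.

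*Cox7a2* had 559 CPM in GFP+ and 714 in GFP- cells and was highest in neurogenic-marker cells, at 1002 CPM against 599.9 CPM in RPC-marker cells (1.67-fold, 1.61 to 1.73). *Cox7a2l*, which encodes a factor that joins complexes III and IV, had 741 CPM and 663 CPM, and the muscle form *Cox7a1* had 2.84 CPM and 4.22 CPM. *Cox7a1* was at 0 UMIs in the 61 cone-marker GFP- cells, which allows up to 9.50 CPM. *Cox7b* had 324 CPM and 372 CPM and *Cox7b2* 5 UMIs in each gate, *Cox8a* had 994 CPM and 932 CPM, and *Cox7c* had 1040 CPM and 1164 CPM. *Cox5a*, a subunit on the matrix side, had 319.9 CPM in GFP+ and 538 in GFP- cells (0.594, 0.576 to 0.614). Within the GFP- library it was highest in the postmitotic neurons outside the cone lineage, with 745 CPM in RGC-marker and 803 CPM in AC/HC-marker cells against 441 CPM in RPC-marker and 415 CPM in cone-marker GFP- cells.

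**Figure D3:**
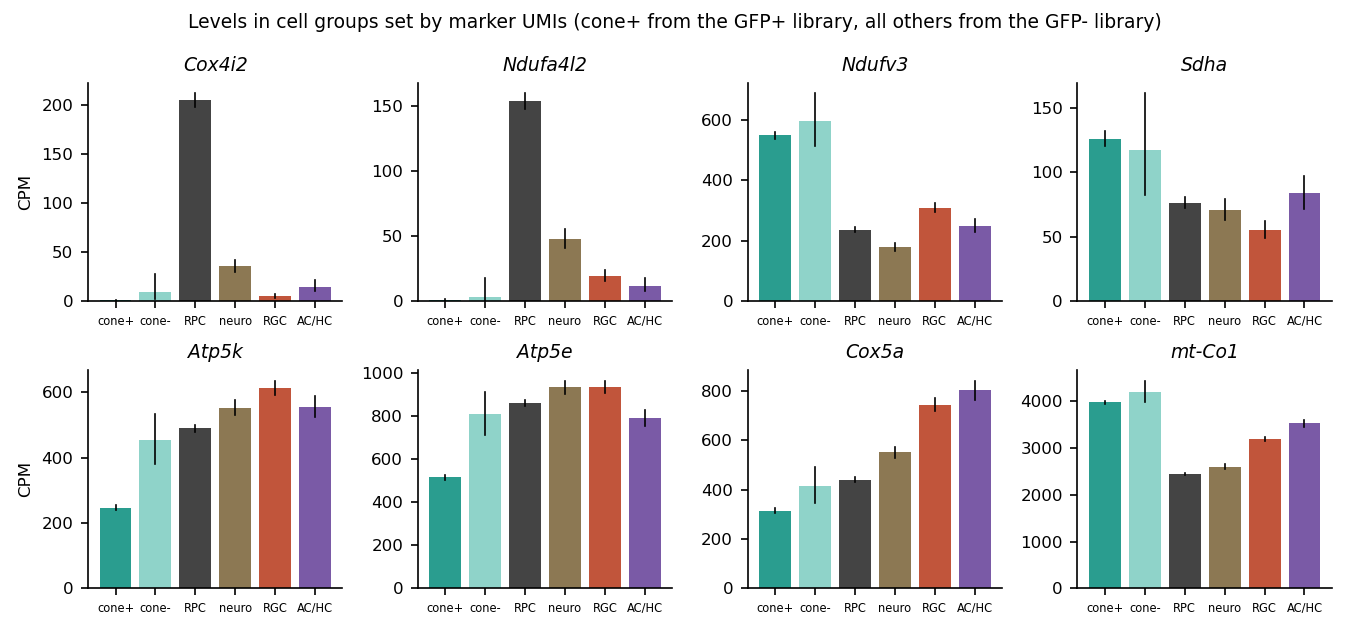
Levels (CPM, bars from 0) of 8 members in 6 groups of cells set by marker UMIs, with 95% counting intervals; cone+ is from the GFP+ library and the other bars are from the GFP- library. *Cox4i2* and *Ndufa4l2* stand at 205 and 154 CPM in RPC-marker cells and below 50 CPM in the others, *Ndufv3* is high in cones of both gates, and *Atp5k* and *Atp5e* are lower in cone-marker GFP+ than in cone-marker GFP- cells.

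Complex V makes ATP. Its 17 members summed to 7366 CPM in GFP+ and 8663 in GFP- cells, a ratio of 0.850 (0.844 to 0.856) that was the lowest of the complexes. *Atp5k*, which encodes a small subunit at the interface of ATP synthase dimers, had 254 CPM and 526 CPM (0.484, 0.467 to 0.501). *Atp5e*, the epsilon subunit of the catalytic head, had 529 CPM and 885 CPM (0.598, 0.583 to 0.613). Both were higher in the cone-marker cells of the GFP- library, at 453 CPM for *Atp5k* and 807 CPM for *Atp5e*, where RPC-marker cells had 490.4 CPM and 862 CPM.

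Within the GFP- library the ratio of cone-marker to RPC-marker cells was 0.923 (0.777 to 1.09) for *Atp5k* and 0.936 (0.824 to 1.06) for *Atp5e*, so that neither differed beyond counting error there per total UMIs. With TMM both were lower, at 0.706 (0.594 to 0.833) for *Atp5k* and 0.716 (0.630 to 0.811) for *Atp5e*, so that this reading depends on the scale. Cone-marker cells of the GFP+ gate had 0.546 times (0.462 to 0.650) the *Atp5k* and 0.638 times (0.563 to 0.726) the *Atp5e* of cone-marker cells of the GFP- gate. Library, gate and stage of the cones cannot be told apart here. Transcript length moved with this comparison: over all genes with at least 50 CPM the median log2 ratio between the cones of both gates was -0.16 for 124 genes of under 600 bases and 0.07 for 1910 genes of 2000 bases or more, and for the 25 nuclear members of under 600 bases it was -0.20. The part of length in these members was not tested.

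The 3 genes *Atp5g1*, *Atp5g2* and *Atp5g3* encode the same mature c subunit of the rotor ring and differed in their mixture. *Atp5g1* had 300.4 CPM in GFP+ and 444 in GFP- cells, *Atp5g2* 558 CPM and 922 CPM, and *Atp5g3* 347 CPM and 279 CPM. *Atp5g2* accounted for 58.7% (58.1 to 59.3) of their tags in RPC-marker cells, 58.7% in neurogenic-marker, 53.2% in AC/HC-marker, 45.8% (45.0 to 46.5) in cone-marker GFP+ and 43.8% (42.6 to 44.9) in RGC-marker cells. *Atp5g3* went the other way, with 15.2% in RPC-marker, 15.8% in neurogenic-marker, 20.7% in AC/HC-marker, 23.4% in RGC-marker and 29.3% in cone-marker GFP+ cells. In cone-marker GFP- cells the shares were 53.5% (48.7 to 58.1) for *Atp5g2* and 23.4% (19.5 to 27.6) for *Atp5g3*. *Atp5g1* made up 26.1% (25.6 to 26.6) in RPC-marker and 32.8% (31.7 to 33.9) in RGC-marker cells, and between 23.2% and 26.1% in the other groups. The share of *Atp5g2* was thus lower, and that of *Atp5g3* higher, in cone-marker, RGC-marker and AC/HC-marker than in RPC-marker cells, and in RGC-marker cells the share of *Atp5g1* was higher as well.

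*Atp5b*, the catalytic beta subunit, had 873 CPM in GFP+ and 699 in GFP- cells and was lowest in RPC-marker cells at 608 CPM. It was 1.54-fold (1.36 to 1.72) higher in cone-marker, 1.33-fold (1.28 to 1.38) in RGC-marker and 1.61-fold (1.54 to 1.69) in AC/HC-marker cells of the same library. With TMM these ratios were 1.17 (1.04 to 1.32), 1.26 (1.21 to 1.30) and 1.38 (1.32 to 1.45). *Atp5s* (20.2 CPM and 7.41 CPM; 2.72-fold, 2.29 to 3.25; 2.17-fold with TMM) and *Atp5sl* (28.1 CPM and 17.7 CPM; 1.59-fold, 1.40 to 1.80) carry complex V symbols but are related factors and not core subunits. *Atp5s* rested on 2 UMIs in cone-marker GFP- cells, too few to say whether it was high there.

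RefSeq holds the stretch from 250 bases before to 50 bases after the start site for 73 of the 87 nuclear members on GRCm38.p6. These stretches are shown for a pair of members that were higher per total UMIs in cones of both libraries than in RPC-marker cells, *Ndufv3* and *Sdha*, and for the pair with the lowest ratios of complex V between the gates, *Atp5k* and *Atp5e*. Capitals mark the core of the site of NRF1, a factor known for driving many nuclear OXPHOS genes.
*Ndufv3*, chr17:31519865-31520164, plus strand: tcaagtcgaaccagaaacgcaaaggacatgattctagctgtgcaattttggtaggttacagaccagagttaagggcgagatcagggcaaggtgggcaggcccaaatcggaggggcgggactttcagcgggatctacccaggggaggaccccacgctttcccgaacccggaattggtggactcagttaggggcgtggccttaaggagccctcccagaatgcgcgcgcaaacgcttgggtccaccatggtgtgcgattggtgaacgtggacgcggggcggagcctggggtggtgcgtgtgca
*Sdha*, chr13:74350191-74350490, minus strand: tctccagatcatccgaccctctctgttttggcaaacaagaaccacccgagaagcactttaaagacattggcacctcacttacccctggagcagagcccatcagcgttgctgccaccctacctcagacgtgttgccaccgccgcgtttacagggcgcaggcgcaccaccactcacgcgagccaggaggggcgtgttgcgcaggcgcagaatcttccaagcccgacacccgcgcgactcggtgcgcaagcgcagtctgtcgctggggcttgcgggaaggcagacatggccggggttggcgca
*Atp5k*, chr5:108434350-108434649, minus strand: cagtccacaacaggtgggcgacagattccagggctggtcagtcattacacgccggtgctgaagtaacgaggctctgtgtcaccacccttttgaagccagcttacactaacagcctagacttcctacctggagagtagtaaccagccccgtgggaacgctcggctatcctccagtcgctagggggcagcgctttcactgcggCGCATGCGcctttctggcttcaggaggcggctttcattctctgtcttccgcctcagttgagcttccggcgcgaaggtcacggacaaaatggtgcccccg
*Atp5e*, chr2:174464052-174464351, minus strand: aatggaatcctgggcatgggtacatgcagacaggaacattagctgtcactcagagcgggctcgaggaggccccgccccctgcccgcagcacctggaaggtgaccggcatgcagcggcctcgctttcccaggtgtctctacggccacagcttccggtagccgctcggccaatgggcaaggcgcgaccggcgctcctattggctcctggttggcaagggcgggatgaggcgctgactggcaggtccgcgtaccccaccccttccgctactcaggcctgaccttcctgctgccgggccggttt
The letters CGCATGCG (NRF1), CCGGAAGT (ETS factors such as GABPA) and AAGATGGC (YY1) were searched on both strands, and no other motif was tried. CGCATGCG reads the same on both strands. It was held by 9 of the 73 members (12.3%) and by 2.07% of all 27025 genes with such a stretch. CCGGAAGT was held by 5 (6.85%) and 4.31%, and AAGATGGC by 11 (15.1%) and 3.19%. Any of the 3 was found in 23 of the 73 (31.5%) and in 9.03% of all these genes. The 27025 genes were not limited to those detected in these cells, so these shares are no matched background. Among the stretches shown, *Atp5k* held CGCATGCG and the other stretches held none of these letters.

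The mitochondrial genome gives its mRNAs from long shared precursors that are cut at the transfer RNAs between them. Per total UMIs all 13 members lay within 1.5-fold between the gates, and with TMM 1 of them, *mt-Nd2*, was at least 1.5-fold lower in GFP+ cells (0.632, 0.619 to 0.645). *mt-Co1*, the catalytic subunit of complex IV, had the highest ratio at 3952 CPM in GFP+ and 2718 in GFP- cells (1.45-fold, 1.44 to 1.47). *mt-Nd2* had the lowest ratio, with 814 CPM and 1026 CPM (0.793), followed by its neighbour *mt-Nd1* with 2284 CPM and 2653 CPM (0.861), both subunits of complex I. With TMM the ratio of *mt-Co1* was 1.16 and that of every other mitochondrially encoded mRNA was below 1.

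The remaining complex I mRNAs were close between the gates, with 395 CPM in GFP+ and 397 in GFP- cells for *mt-Nd3*, 1708 CPM and 1583 CPM for *mt-Nd4*, 155 CPM and 134 CPM for *mt-Nd4l*, and 232 CPM and 211 CPM for *mt-Nd5*. *mt-Nd6*, which lies on the other strand, had 12.0 CPM and 9.74 CPM. The mRNAs of the other complexes had 2573 CPM and 2727 CPM for *mt-Cytb* of complex III, 2469 CPM and 2337 CPM for *mt-Co2* and 5030 CPM and 4629 CPM for *mt-Co3* of complex IV, and 5684 CPM and 5436 CPM for *mt-Atp6* and 145 CPM and 125 CPM for *mt-Atp8* of complex V.

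Some of these mRNAs carry a pair of reading frames, so that their tags are not independent. The frames of *mt-Atp8* (M, 7766 to 7969) and *mt-Atp6* (M, 7927 to 8607) overlap by 43 bases, shown here to make the shared transcript visible, with the start codon of *mt-Atp6* and the stop codon of *mt-Atp8* in capitals.
*mt-Atp8* and *mt-Atp6* overlap, chrM:7927-7969, plus strand: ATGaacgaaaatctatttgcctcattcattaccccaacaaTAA
*mt-Nd4l* and *mt-Nd4* overlap by 7 bases on the same strand, and *mt-Nd5* and *mt-Nd6* by 14 bases on opposite strands.

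The balance of *mt-Co1* against the rest differed between cell groups within the GFP- library. *mt-Co1* made up 10.2% (10.1 to 10.3) of mitochondrially encoded UMIs in RPC-marker cells, 11.2% (11.0 to 11.4) in neurogenic-marker cells, 13.75% (13.5 to 14.0) in RGC-marker cells, 14.0% (13.7 to 14.3) in AC/HC-marker cells and 14.1% (13.4 to 14.8) in cone-marker cells. In cone-marker GFP+ cells it made up 15.6% (15.5 to 15.7). Relative to the 12 other mRNAs it was 1.44-fold (1.36 to 1.52) higher in cone-marker, 1.40-fold (1.37 to 1.42) in RGC-marker and 1.43-fold (1.40 to 1.47) in AC/HC-marker than in RPC-marker cells of the same library, which all share these RPC-marker cells. *mt-Nd1* went down over the same groups, from 11.4% in RPC-marker to 9.16% in cone-marker and 9.53% in AC/HC-marker cells. These shares lie within the mitochondrial mRNAs and do not depend on the scale chosen for the nuclear genes.

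**Figure D4:**
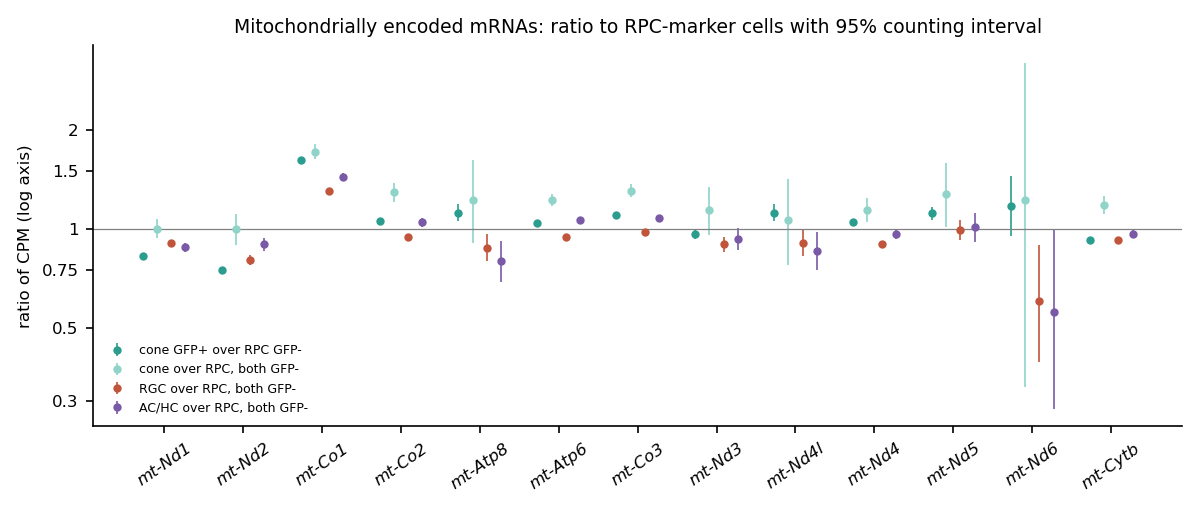
Ratio of CPM to RPC-marker cells (log axis) for the 13 mitochondrially encoded mRNAs in order along the genome, in cone-marker GFP+ cells and in cone-marker, RGC-marker and AC/HC-marker cells of the GFP- library, with 95% counting intervals. *mt-Co1* lies above 1 in all 4 (from 1.30 to 1.72), and *mt-Nd6* has wide intervals because it had few UMIs.

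The cell group comparisons share the RPC-marker cells and are given side by side for genes with at least 50 CPM on either side. In cone-marker GFP+ over RPC-marker cells, 7 of 78 nuclear members were higher (40.0% of all genes) and 5 lower (18.3%), and in cone-marker over RPC-marker cells within the GFP- library, 8 of 78 were higher (36.8%) and 2 lower (18.4%). With TMM the first comparison gave 2 members higher and 25 lower, where 26.5% and 29.3% of all genes were, and the second gave 1 and 11, where 22.8% and 29.1% were. In RGC-marker over RPC-marker cells, 5 of 78 were higher (27.9%) and 3 lower (20.8%), in neurogenic-marker over RPC-marker cells 2 of 78 (13.0%) and 2 (8.05%), and in AC/HC-marker over RPC-marker cells 5 of 79 (32.2%) and 4 (18.7%). With TMM they became 1 and 3 for RGC-marker (24.6% and 23.4% of all genes), 2 and 2 for neurogenic-marker (11.6% and 8.64%) and 3 and 7 for AC/HC-marker cells (24.1% and 25.5%). Per total UMIs each share of the members lay below that of all genes. With TMM this held in all but 1 of these 10 counts. The exception was the 25 of 78 members lower in cone-marker GFP+ cells, whose share lay slightly above that of all genes. Transcript length was not matched in these counts either. In cone-marker over RPC-marker cells within the GFP- library the median log2 ratio was -0.09 for 126 genes of under 600 bases. It was 0.48 for 1811 genes of 2000 bases or more. For nuclear members in these length ranges it was 0.08 (25 genes) and 0.26 (7 genes).

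Among members with at least 50 CPM on either side, *Cox4i2* and *Ndufa4l2* had the lowest ratios in all of these comparisons. Both pass that limit through the RPC-marker cells only, at 205 and 154 CPM, and count among the lower members in each comparison. In neurogenic-marker cells *Cox4i2* was 0.174 times and *Ndufa4l2* 0.311 times the level of RPC-marker cells, and *Ndufc1*, a small complex I subunit, was 1.33-fold (1.27 to 1.40) higher. The sparse isoforms also moved: *Cox7a1* was at 3.85 CPM in RPC-marker, 1.80 CPM in neurogenic-marker, 7.25 CPM in RGC-marker and 8.18 CPM in AC/HC-marker cells, each on 67 UMIs or fewer, and *Cox6b2* was 0.305 times (0.185 to 0.475) its RPC-marker level in AC/HC-marker cells. In RGC-marker cells the members past 1.5-fold upward were *Cox5a* (1.69, 1.63 to 1.76), *Ndufs5* (1.54, 1.46 to 1.63), *Ndufa11* (1.52), *Ndufa1* (1.52) and *Ndufb2* (1.505), the last 4 small accessory subunits of complex I, and *Atp5g2* was lower (0.656, 0.631 to 0.681). *Ndufs5* was already 1.74-fold (1.65 to 1.84) higher in neurogenic-marker cells, at 434 CPM against 249 CPM in RPC-marker cells. In AC/HC-marker cells *Cox5a*, *Ndufs1*, *Ndufv1* (1.87, 1.64 to 2.12), *Atp5b* and *Ndufa9* (1.58) were higher, and *Sdhd* (0.587, 0.496 to 0.691) and *Ndufa12* (0.596, 0.545 to 0.650) were lower.

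The cones of both gates were close for most members. Of 77 nuclear members with at least 50 CPM, 0 were 1.5-fold higher in cone-marker GFP+ than in cone-marker GFP- cells (13.4% of all genes) and 5 were lower (6.62%), namely *Atp5k*, *Sdhaf4* (0.588, 0.392 to 0.925), *Sdhc* (0.591, 0.436 to 0.820), *Atp5e* and *Ndufc1* (0.664, 0.558 to 0.795). Among members with at least 50 UMIs the highest ratios were those of *Atp5s* (3.23, 0.886 to 26.8), *Atp5sl* (1.497, 0.682 to 4.10) and *Ndufv1* (1.36, 0.949 to 2.02), and each interval held 1. The summed ratio was 0.906 (0.889 to 0.925) for the nuclear and 0.853 (0.836 to 0.871) for the mitochondrially encoded members, at medians of 3878.5 and 4841 UMIs per cell.

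Within the cone-marker GFP+ cells, 236 cells with at least 5 UMIs of 8 stress genes such as *Chac1* and *Trib3*, and 511 cells with at least 3 UMIs of *Fabp7*, were set beside the other 2853. The nuclear share was 2.51% (2.48 to 2.54) in stress-marker, 3.04% (3.01 to 3.06) in *Fabp7* and 2.92% (2.91 to 2.93) in other cones, and the mitochondrially encoded share was 2.02%, 2.75% and 2.55%. Median depths were 4173.5, 4771 and 3740 UMIs. *Uqcrq* stood apart in stress-marker cones, at 669.5 CPM against 378 CPM in other cones (1.77-fold, 1.63 to 1.92), while *Uqcr11* had 250.2 CPM against 413 CPM (0.605, 0.533 to 0.685). In *Fabp7* cones *Atp5k* had 359 CPM against 229.8 CPM (1.56-fold, 1.45 to 1.68) and *Atp5g2* had 715 CPM against 507 CPM (1.41-fold, 1.34 to 1.49).

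A small set of progenitors held almost no mitochondrial mRNA. Of RPC-marker cells, 97 of 1869 (5.19%, 4.23 to 6.29) had less than 0.5% mitochondrially encoded UMIs, 12 had 0.5% to 1% and 33 had 1% to 1.5%, so that these cells formed a separate lower mode. Such cells were 15 of 469 neurogenic-marker cells, 5 of 3600 cone-marker GFP+ cells and 0 of 481 RGC-marker cells, which allows a share of up to 0.624%. The limit of 0.5% was chosen after the values were seen.

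**Figure D5:**
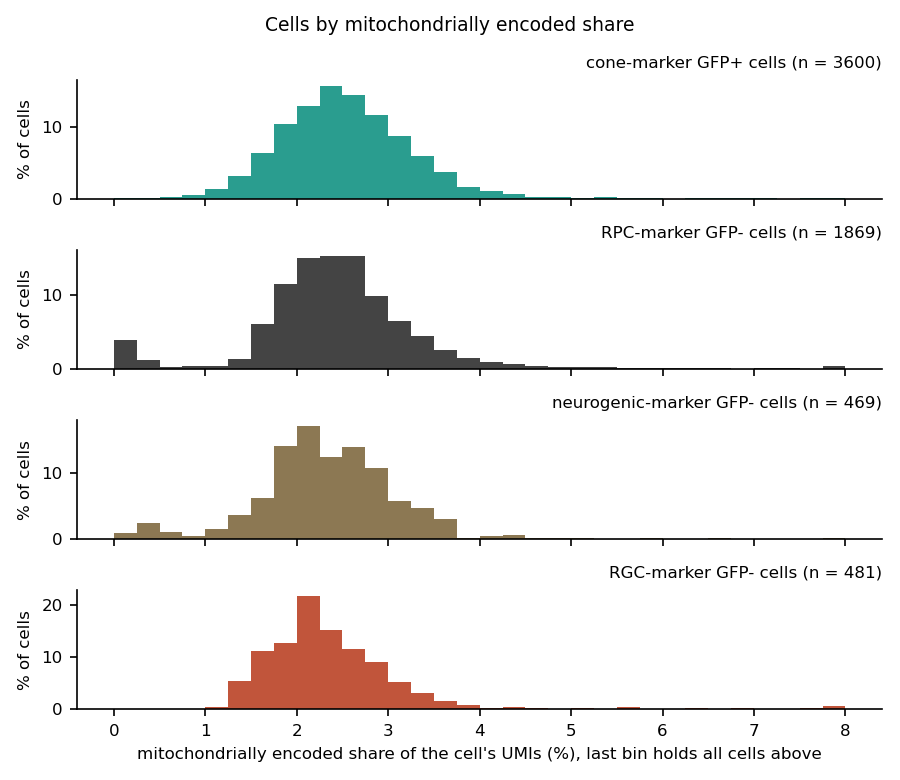
Share of cells (%) by mitochondrially encoded share of the cell's UMIs (%), in bins of 0.25, for 4 groups. The main mode lies between 2% and 3% in each group, and a separate lower mode under 0.5% is seen in RPC-marker cells (97 of 1869) and neurogenic-marker cells (15 of 469).

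In these 97 cells mitochondrially encoded mRNAs made up 0.166% of UMIs against 2.50% in the other 1772 RPC-marker cells (0.0664-fold, 0.0628 to 0.0702), and since the cells were chosen by this share its size is a description. The nuclear members were at 2.72% against 2.98% (0.914-fold, 0.901 to 0.926), and of 77 nuclear members with at least 50 CPM, 0 were 1.5-fold lower and 1, *Ndufa4l2*, was higher (267 CPM against 149 CPM). The share of all genes past 1.5-fold in these cells was not counted, so these counts do not set the members apart from other genes. The median depth was 8065 against 9464 UMIs. *Malat1*, a nuclear RNA, was higher in these cells at 21586 CPM against 13387 CPM, and its part was not tested. *Neat1*, another nuclear RNA, lay in the other direction at 3.87 CPM against 10.3 CPM. It rested on 3 UMIs in the 97 cells, and its interval held 1 (0.374-fold, 0.0764 to 1.11). Without cells under 0.5% the GFP+ over GFP- ratio of the mitochondrially encoded members was 1.03 in place of 1.06, and 1.02 in place of 1.06 for cone-marker GFP+ over RPC-marker cells.

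Other genes of the pathway were read from lists, with the percentages of all genes given above as their background. Of 33 assembly factors of the complexes with at least 10 UMIs, 11 were at least 1.5-fold higher and 1 lower in GFP+ cells, against 38.0% and 22.3% of all genes. Their median log2 ratio was 0.30, as over all genes, and the TMM shift of -0.33 turned its sign. In cone-marker over RPC-marker cells of the GFP- library 16 were higher and 3 lower, where 36.8% and 18.4% of all genes of at least 50 CPM were. Many genes of the list lay below 50 CPM, so these shares are no matched background. Several of the 16 rested on few UMIs, such as *Sco1* (1.71-fold, 0.459 to 4.49) and *Bcs1l* (1.66-fold, 0.711 to 3.33), with intervals that held 1. *Surf1*, an assembly factor of complex IV, had 69.7 CPM and 33.0 CPM in GFP+ and GFP- cells, and *Ttc19*, of complex III, had 81.1 CPM and 35.8 CPM, the highest ratio of the list. *Ndufaf2* had the lowest, with 47.0 CPM and 70.8 CPM.

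*Higd2a*, a small membrane protein that helps to assemble complex IV, was far higher in cones. It had 841 CPM in GFP+ and 181 in GFP- cells, and 744 CPM in cone-marker against 168 CPM in RPC-marker cells within the GFP- library (4.42-fold, 3.86 to 5.05). Its relative *Higd1a* went the other way, at 124 CPM and 243 CPM. *Cycs*, the cytochrome c that carries electrons from complex III to complex IV, had 167 CPM and 331 CPM in GFP+ and GFP- cells. In cone-marker and RPC-marker cells of the GFP- library it had 244 CPM and 243 CPM. These latter levels are close per total UMIs only, since TMM moves the log2 ratio of that comparison by -0.39. Of the 6 genes on this list 1 was higher and 2 were lower in GFP+ cells.

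Of 21 genes of mitochondrial biogenesis and mitochondrial DNA expression, 6 were higher and 1 lower in GFP+ cells, with a median log2 ratio of 0.24 that also turned with TMM. In RGC-marker over RPC-marker cells 0 were higher and 9 lower, with a median of -0.50, where 27.9% and 20.8% of all genes of at least 50 CPM were. Many genes of this list also lay below 50 CPM in RPC-marker cells, so these shares are no matched background either. *Polrmt*, the mitochondrial RNA polymerase, had 14.1 CPM in GFP+ and 6.08 in GFP- cells, and the coactivator *Pprc1* had 2.97 CPM and 8.51 CPM. Of 13 citric acid cycle genes, 2 were higher and 1 lower in GFP+ cells. *Idh3g*, a subunit of isocitrate dehydrogenase, had 193 CPM and 107 CPM, and *Suclg2*, a subunit of the GTP-forming succinyl-CoA ligase, had 5.999 CPM and 39.3 CPM. Of 9 carriers and pores, 2 were higher and 1 lower, with 473 CPM and 250.4 CPM for *Vdac1*, a pore of the outer membrane, and 237 CPM and 376 CPM for the adenine nucleotide carrier *Slc25a5*. Within the GFP- library *Slc25a5* lay in the other direction per total UMIs, with 412 CPM in cone-marker and 275 CPM in RPC-marker cells (1.496-fold, 1.25 to 1.78). TMM moves the log2 ratio of this comparison by -0.39, and whether the interval then holds 1 was not computed.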

How the data were processed

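The authors sorted GFP+ and GFP- retinal cells, made 1 library per gate with 10x Chromium 3′ version 2 reagents and deposited raw UMI counts per gene and cell, which per the submitters' processing notes Cell Ranger 2.1.1 wrote for the mm10 genome. The values are whole counts that were not normalized. The total was 16010591 UMIs for the GFP+ and 46778924 for the GFP- library, and since each gate has 1 library only counting error could be estimated.

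Cells were kept by the limits that the methods state, with the mitochondrial limit, printed there as a percentage, read as a fraction of 0.25. UMIs were summed per group and given per 1000000 with exact Poisson intervals. Ratios have exact conditional binomial and shares Clopper-Pearson 95% intervals, and a count of 0 is bounded by 3 counts. For calls, 0.5 was added to both sums. Intervals were tested on simulated data. TMM factors came from edgeR 4.0.16, and all else was computed in Python 3.11.15 with scipy 1.17.1, numpy 2.4.6 and pandas 2.3.3.

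The members and gene lists were chosen with earlier results of these data known. Genes were named by rule: all mitochondrially encoded members, isoform families and *Sdhaf* genes, among members with at least 50 UMIs those of each complex with the highest and lowest gate ratio and the 2 with the most UMIs, the 3 highest and 3 lowest of each cell group comparison, and the highest and lowest of each list. *Ndufa1*, *Ndufa6*, *Ndufa9*, *Ndufa11*, *Ndufa12*, *Ndufb2*, *Uqcrfs1*, *Uqcr11*, *Atp5b*, *Surf1* and *Higd1a* were named after their values were seen. A member that the rule names is not reported here. Transcript lengths and mitochondrial reading frames came from the GRCm38 annotation. The alternatives were other cell filters, limits, denominators, weights, scales, marker rules and pseudocounts.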

Additional observations from a re-analysis of the deposited data

How the results depend on the processing

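Of the values recomputed under the alternatives, 54 moved by less than counting error or less than 1.5 times for counts, 24 moved and 4 reversed, and the causes of the moves were not tested. All 4 reversals came with TMM factors, which took the summed mitochondrially encoded ratio to 0.846 for GFP+ over GFP- cells, 0.817 for cone-marker GFP+ over RPC-marker cells and 0.954 for cone-marker over RPC-marker cells within the GFP- library, and the nuclear ratio of that last comparison to 0.827. TMM also gave nuclear ratios of 0.757 for the gates, 0.753 for cone-marker GFP+ over RPC-marker cells and 1.05 for RGC-marker over RPC-marker cells, a mitochondrially encoded ratio of 0.917 for the latter, and 3 members higher and 23 lower between the gates. With all barcodes or with no upper limit on genes, the nuclear gate ratio was 0.941, the mitochondrially encoded ratio was 1.08 for the gates and for cone-marker GFP+ over RPC-marker cells, and the nuclear ratio of RGC-marker to RPC-marker cells was 1.12. Means of per-cell values gave 0.943 (nuclear) and 1.04 (mitochondrially encoded) for the gates, and mitochondrially encoded ratios of 1.04 for cone-marker GFP+ and 0.980 for RGC-marker over RPC-marker cells. The stricter marker rule gave a nuclear ratio of 1.04 for cone-marker over RPC-marker cells within the GFP- library and a mitochondrially encoded ratio of 0.957 for RGC-marker over RPC-marker cells. Leaving out cells under 0.5% mitochondrially encoded UMIs, an alternative chosen after seeing the data, gave mitochondrially encoded ratios of 1.03 for the gates, 1.02 for cone-marker GFP+, 1.19 for cone-marker GFP- and 0.929 for RGC-marker over RPC-marker cells. No paired analysis was possible because each gate has 1 library, both numbered 1. The values compare 2 libraries of pooled embryos, the 61 cone-marker GFP- cells limit their comparisons, and counting intervals do not cover differences between libraries.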

Other observations

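Because *Cox4i2* and *Ndufa4l2* are both known to rise when oxygen is low, a list of 12 genes with the same property was written after their values were seen, and its levels are given as a description. Between cone-marker GFP+ and RPC-marker cells 2 of the 12 genes were at least 1.5-fold higher and 5 were lower, where 40.0% and 18.3% of all genes with at least 50 CPM were, and the median ratio of the list was 0.907. Many of the 12 lay below 50 CPM in both groups, so these shares are no matched background. Among the lower genes *Egln3* rested on 5 against 41 UMIs and *Car9* on 2 against 21 UMIs. *Slc2a1*, a glucose transporter, had 54.3 CPM in cone-marker GFP+ and 244 CPM in RPC-marker cells, and *Pdk1*, a kinase that restrains pyruvate dehydrogenase, had 7.19 CPM and 24.7 CPM. *Ddit4*, an inhibitor of mTOR signalling, had 109.7 CPM and 30.2 CPM and so lay in the other direction.

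The 97 RPC-marker cells with under 0.5% mitochondrially encoded UMIs were compared with the other RPC-marker cells over 3055 genes with at least 50 CPM. In them 12 genes were at least 4-fold lower, and all 12 were mitochondrially encoded, as the choice of these cells fixes. Outside the mitochondrial genome the ratios ran from 0.348 to 2.55. Cytosolic ribosomal protein genes made up 26.9% of UMIs against 28.7%, and the median was 2727 against 2903.5 genes per cell. *Hist1h2ap*, a histone gene, was 2.20-fold higher and *Cd24a*, a surface protein, was at 0.484 times its level in the other cells.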
